A study of Mus musculus with 36 samples.

Results

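The genes described here are the plasminogen activators Plat and Plau, the urokinase receptor gene Plaur and the serpins Serpine2 and Serpinb2, which inhibit the activators. They were taken by gene symbol, and they are 5 of the 53421 genes in the table of counts and 5 of 52416 in the table of TPM (transcript abundance per length, scaled to 1 total for every library). All RNA came from a conditionally immortalised, wild-type (WT) mouse line of fibroblast-like chondrocytes, the cells of cartilage. NT cells carried a pool of non-targeting siRNA, and IFT88siRNA cells carried a pool against Ift88, a gene for a transport protein of the cilium, each at 50 nM per the labels. Both siRNA groups were sampled in medium without IL-1β (0 h) and after 10 ng/ml of this inflammatory cytokine for 5 lengths of time (1, 2, 4, 8 or 24 h). Each of the 12 conditions had 3 libraries, which makes 18 NT and 18 IFT88siRNA libraries and 36 in all. The labels do not say that the 3 libraries of a condition came from separate cultures, so that P-values here measure the spread between these libraries, which may be technical. All cells were of a single line, and every condition had passed through transfection.

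Tissue-type plasminogen activator (tPA, from Plat) and urokinase (uPA, from Plau) are serine proteases that cut plasminogen to plasmin. Plasmin digests fibrin and other matrix proteins and activates latent metalloproteinases, and the system is known in cartilage for its part in the breakdown of matrix under inflammatory cytokines. The receptor uPAR (from Plaur) holds urokinase at the cell surface. Serpins are inhibitors that trap their protease in a covalent complex: protease nexin-1 (from Serpine2) acts on thrombin, urokinase and tPA, and plasminogen activator inhibitor 2 (PAI-2, from Serpinb2) acts on urokinase and tPA and is mostly kept inside the cell.

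The 5 protein-coding genes lie on 4 chromosomes (GRCm38, GENCODE M21), with both serpins on chromosome 1. Plat spans chr8:22757727-22782844, Plau chr14:20836660-20843385, Plaur chr7:24462484-24475968 and Serpinb2 chr1:107511423-107535478, all on the plus strand, and Serpine2 spans chr1:79794197-79861180 on the minus strand. Reads were counted over all exons of a gene, untranslated parts included. Exons of Serpinb10 overlap those of Serpinb2 on the same strand, and Serpinb10 itself had at most 0.85 CPM (the reads of a gene scaled to library size) in a library. How reads in the shared exons were assigned was not tested, and the counts of both genes may lack some of them.

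RefSeq start sites (GRCm38.p6) were matched for 3 of the 5 genes. The 250 bases before a start of Plaur, of Serpinb2 and of Serpine2 are printed, as these were the genes with a matched start. Plaur and Serpinb2 rose with IL-1β, and Serpine2 did not pass the test of the 5 time points together in NT cells. Plau, which also rose, and Plat had no window and were not searched. Capitals mark exact matches, on either strand, to the AP-1 motif TGANTCA, the binding motif of Fos and Jun proteins.
Plaur, chr7:24462233-24462482, plus strand: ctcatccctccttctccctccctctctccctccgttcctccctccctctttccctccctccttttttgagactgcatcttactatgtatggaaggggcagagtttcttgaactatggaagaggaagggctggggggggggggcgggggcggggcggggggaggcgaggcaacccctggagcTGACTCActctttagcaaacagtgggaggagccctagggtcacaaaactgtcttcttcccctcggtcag
Serpinb2, chr1:107511173-107511422, plus strand: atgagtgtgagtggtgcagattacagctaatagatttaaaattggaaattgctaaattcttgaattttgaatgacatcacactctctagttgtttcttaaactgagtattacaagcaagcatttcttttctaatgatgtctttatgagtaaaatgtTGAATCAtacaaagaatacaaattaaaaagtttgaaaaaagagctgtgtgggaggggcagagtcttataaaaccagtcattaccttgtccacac
Serpine2, chr1:79858666-79858915, minus strand: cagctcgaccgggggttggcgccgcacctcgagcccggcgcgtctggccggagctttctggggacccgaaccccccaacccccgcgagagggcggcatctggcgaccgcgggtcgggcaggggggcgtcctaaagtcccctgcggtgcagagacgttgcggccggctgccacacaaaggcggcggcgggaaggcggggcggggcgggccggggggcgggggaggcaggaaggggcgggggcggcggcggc
The Plaur window held TGACTCA, which began 69 bases before the start, and the Serpinb2 window held TGAATCA, which began 94 bases before it. The same motif stood in 6.75% of 32851 such windows, and in 1 or more windows of 7.82% of 27025 genes. The full 8-base palindrome of the cyclic AMP response element (1.55% of windows) and the NF-kB consensus (7.25% of windows) had no exact match in these 3 windows. The windows differed in base content: G and C made up 59.6% of the Plaur window, 32.4% of the Serpinb2 window and 78.8% of the Serpine2 window. The Serpine2 start lies inside the longer span annotated above. A match is a stretch of letters and not evidence of binding.

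Total counts on genes were from 19337022 to 38304127 per library, with a median of 21672803.5 in NT and 25873754 in IFT88siRNA. Of 10 chondrocyte markers, 5 had a median TPM of 1 or more, while Acan, Matn1, Matn3 and Chad lay under 1 and Col9a1 was listed at 0 in 25 libraries. The summed level of this list was from 29.7 to 159 TPM in NT and from 36.8 to 137 in IFT88siRNA. All 10 fibroblast markers had a median TPM of 1 or more, against 2 of 6 macrophage and leukocyte markers, 0 of 4 endothelial and 1 of 4 epithelial markers. The 2 macrophage and leukocyte markers were Cd68 (median 6.66 TPM) and Lyz2 (2.52), while Adgre1 of the same list was listed at 0 in 28 libraries. Ift88 itself, the target of the siRNA, was lower in IFT88siRNA at every time point, with 2.77 ± 0.16 against 9.06 ± 0.36 CPM at 0 h (SD, n = 3) and a log2 difference of -1.47 to -2.12 (adjusted P from 0.00189 to 3.26e-10). Exons of Ift88 overlap those of the antisense gene Ift88os, and the counting was without strand by its default setting.

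Per length, Plat had the highest level of the 5 genes in resting cells and Serpinb2 the lowest. As these are bulk samples, fewer cells of a type and less RNA per cell cannot be told apart. In NT cells at 0 h the deposited TPM was 114 ± 1.5 for Plat, 48.6 ± 0.99 for Serpine2, 40.7 ± 2.2 for Plaur, 31.7 ± 1.0 for Plau and 0.21 ± 0.10 for Serpinb2 (SD, n = 3). The ranges of the 3 libraries did not overlap between neighbours in this order. At 2 h with IL-1β the order was Plaur (235 ± 5.3 TPM), Plat (129 ± 3.3), Plau (116 ± 5.1), Serpine2 (40.3 ± 6.2) and Serpinb2 (1.25 ± 0.15), again without overlap. At 24 h Plat led again with 98.4 ± 3.9 TPM, and Plau, at 21.9 ± 1.5, stood under Serpine2 at 40.1 ± 2.0. In IFT88siRNA cells at 0 h, Plau (32.9 ± 1.6 TPM) and Plaur (30.9 ± 2.2) overlapped between libraries, and the order of those neighbours was not resolved.

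**Figure D1:**
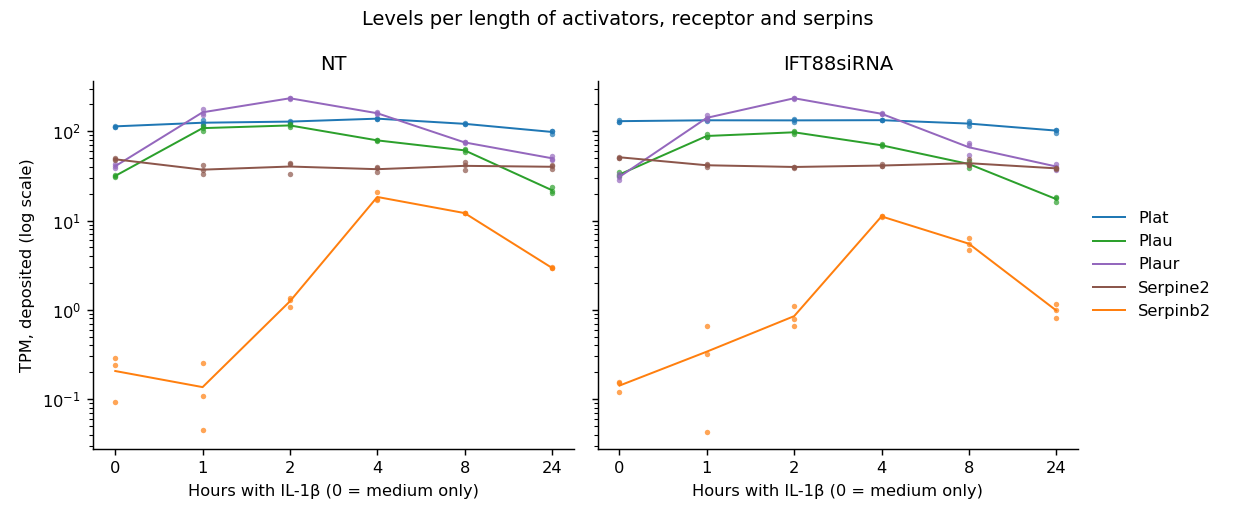
Deposited TPM (log axis) of the 5 genes against hours with IL-1β (time points equally spaced), in NT (left) and IFT88siRNA (right); points are libraries and lines join the means of 3. The NT means of Plat stay between 98.4 and 139 and those of Serpine2 between 37.2 and 48.6, Plau and Plaur have their highest means at 2 h, and Serpinb2 climbs from 0.21 to 18.4 TPM in NT at 4 h.

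The first question is how the genes changed from 0 h with IL-1β in NT cells. The labels list cells without IL-1β at 0 h only. In either siRNA group, an effect of IL-1β on a change from 0 h cannot be told apart from one of time in culture. A call required an adjusted P under 0.05 together with a change of more than 1.5-fold in either direction. Over the 5 time points together, 3 of the 5 genes were called, Plau, Plaur and Serpinb2, where 50.0% of 16048 tested genes were called, so the count itself does not set the family apart. Plat passed the P-value threshold but not the fold threshold. By time, 2 of 5 were called at 1 h, against 18.7% of all tested genes, 3 at 2 h (27.3% of all), 3 at 4 h (28.7%), 3 at 8 h (19.7%) and 1 at 24 h (16.3%). The median log2 change of the 5 genes was 2.14 at 2 h and 1.58 at 4 h, beside -0.01 and -0.02 over all genes tested.

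Plau, the urokinase gene, rose within 1 h and stood below its 0 h level at 24 h. In NT it had 39.2, 37.4 and 40.7 CPM at 0 h, 144, 150.0 and 158 at 1 h, and 164, 177 and 175 at 2 h. It then had 119, 116 and 114 CPM at 4 h, 78.7, 81.0 and 81.5 at 8 h, and 31.8, 28.3 and 27.1 at 24 h. All libraries from 1 to 8 h lay above those at 0 h, and all 3 libraries at 24 h lay below them. The change was 3.85-fold at 1 h (log2 1.95, SE 0.05, adjusted P = 7.74e-20) and 4.39-fold at 2 h (log2 2.14, SE 0.05, adjusted P = 9.64e-21). At 24 h it was -0.43 on the log2 scale (SE 0.06, adjusted P = 9.34e-07), which is short of the fold threshold.

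Plaur, the gene of the receptor that urokinase binds, also had its highest level at 2 h, with a larger fold change than Plau. In NT it had 26.7, 27.4 and 29.6 CPM at 0 h, 116, 115 and 131 at 1 h, and 189.5, 203 and 194 at 2 h. It had 134, 133 and 130.2 CPM at 4 h, 55.4, 55.0 and 56.5 at 8 h, and 37.9, 35.5 and 38.5 at 24 h. Every library after IL-1β lay above every library at 0 h. The change was 6.99-fold at 2 h (log2 2.80, SE 0.05, adjusted P = 6.83e-23), 2.0-fold at 8 h and 1.34-fold at 24 h, the last short of the fold threshold (adjusted P = 1.11e-06).

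Serpinb2, the PAI-2 gene, was almost silent in resting cells and had its highest level at 4 h, later than Plau and Plaur. In NT it had 5, 2 and 6 reads at 0 h and 2, 1 and 5 reads at 1 h, or 0.04 to 0.27 CPM. It then had 1.36, 1.14 and 1.42 CPM at 2 h, 19.6, 18.04 and 18.2 at 4 h, 11.4, 11.2 and 10.7 at 8 h, and 2.80, 2.60 and 2.85 at 24 h. From 2 h on, every library lay above all libraries at 0 h and 1 h, and the levels at 2, 4, 8 and 24 h did not overlap with each other. The fitted change from 0 h was 6.87-fold at 2 h (log2 2.78, SE 0.31, adjusted P = 4.25e-08), 98.5-fold at 4 h (log2 6.62, SE 0.19, adjusted P = 6.8e-20) and 14.5-fold at 24 h (log2 3.86, SE 0.26). These folds rest on 13 reads at 0 h, and without NT replicate 2 or replicate 3 at 0 h the log2 change at 4 h lay between 6.27 and 6.95. At 4 h, Serpinb2 ranked 32 of 16048 genes by the size of its change, Plaur 661, Plau 1317, Plat 5538 and Serpine2 14458.

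Plat, the tPA gene, moved little. Its range was 153 to 155 CPM at 0 h, 219 to 229 at 4 h and 135 to 149.6 at 24 h in NT, and the libraries at 1, 2, 4 and 8 h all lay above those at 0 h. The largest change was 1.46-fold at 4 h (log2 0.55, SE 0.05, adjusted P = 1.31e-10), under the fold threshold. On the deposited TPM scale the change of Plat at 4 h was 0.28 on log2(TPM + 1) (adjusted P = 4.02e-05), and the median of 12074 genes was 0.23 lower there than on the CPM scale.

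Serpine2, the protease nexin-1 gene, changed little on the CPM scale. It had 41.3 to 50.3 CPM at 1 h and 49.4 to 53.8 at 0 h, and its 5 time points together did not pass the test (adjusted P = 0.16), while 1 h alone had an adjusted P of 0.0465. Its log2 changes lay between -0.22 (SE 0.09) at 1 h and -0.06 (SE 0.09) at 4 h. On log2(TPM + 1) the change of Serpine2 at 1 h was -0.38 (adjusted P = 0.00922), where the median gene stood at -0.15.

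**Figure D2:**
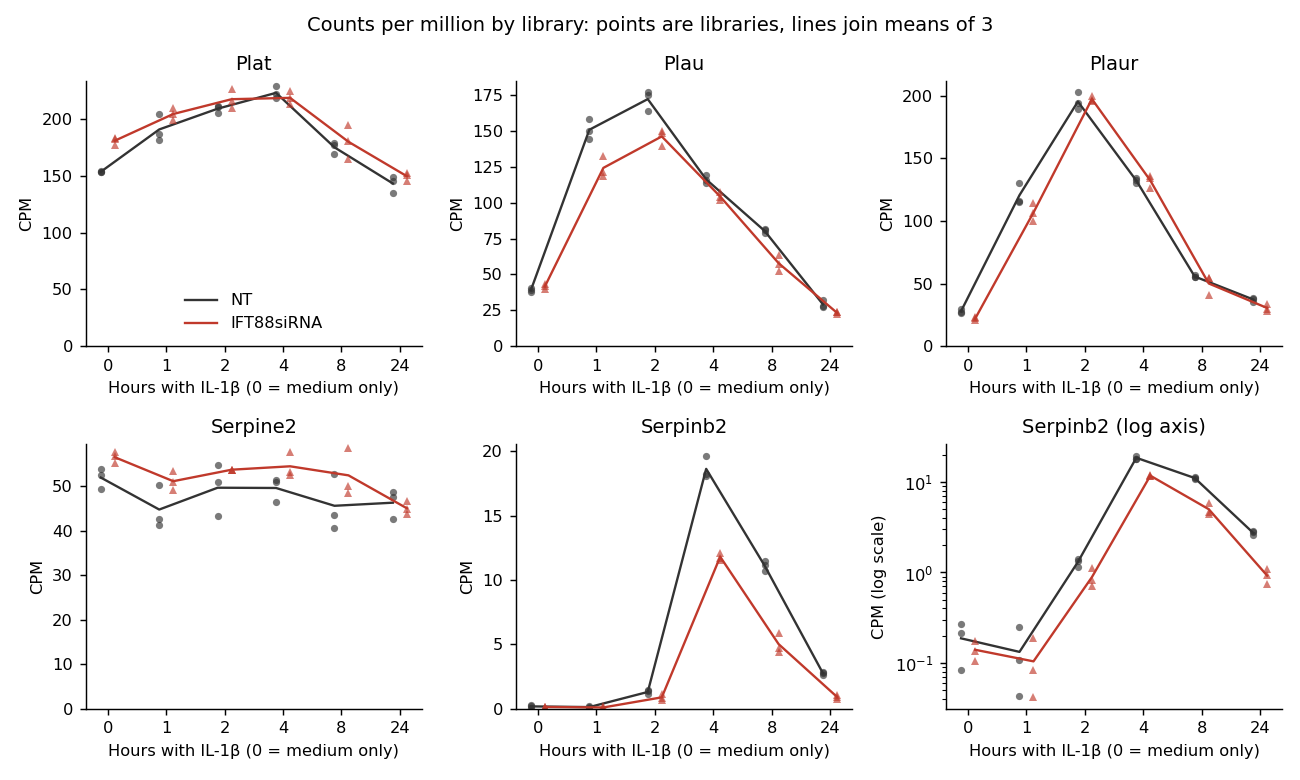
CPM of each gene against hours with IL-1β (time points equally spaced), with NT as dark circles and IFT88siRNA as red triangles; each point is a library, lines join means of 3, and Serpinb2 is shown on a linear and on a log axis. Plau and Plaur peak at 2 h and Serpinb2 at 4 h, where NT libraries of Serpinb2 sit between 18.04 and 19.6 CPM and IFT88siRNA libraries between 11.6 and 12.1.

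IFT88siRNA cells showed the same 3 genes called over the 5 time points, Plau, Plaur and Serpinb2, where 48.2% of all tested genes were called. Plau rose 2.98-fold at 1 h and 3.50-fold at 2 h (log2 1.81, SE 0.06, adjusted P = 7.83e-18). Its values were 43.2, 42.2 and 39.7 CPM at 0 h, 121, 119 and 133 at 1 h, 150.2, 149 and 139.8 at 2 h, and 107, 104 and 102 at 4 h. At 8 h it had 63.8, 52.4 and 57.2 CPM and at 24 h 23.9, 23.5 and 22.2. At 24 h Plau had fallen below its own 0 h level, by 0.85 on the log2 scale (SE 0.07, adjusted P = 1.56e-10), with no overlap between libraries.

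Plaur in IFT88siRNA cells had 20.5, 22.2 and 22.9 CPM at 0 h, 106, 99.7 and 114 at 1 h, and 199.7, 197 and 196 at 2 h. It had 136, 135 and 127 CPM at 4 h, 54.8, 41.2 and 54.2 at 8 h, and 27.8, 30.0 and 33.5 at 24 h. The peak at 2 h was 9.04-fold over 0 h (log2 3.18, SE 0.09, adjusted P = 9.82e-20). At 8 h replicate 2 lay under the other libraries.

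Serpinb2 in IFT88siRNA cells had 4, 3 and 5 reads at 0 h and 1, 5 and 2 reads at 1 h. It had 0.71, 0.82 and 1.13 CPM at 2 h, 11.7, 12.1 and 11.6 at 4 h, 5.91, 4.43 and 4.72 at 8 h, and 0.75, 1.08 and 0.94 at 24 h. The fitted change was 81.9-fold at 4 h (log2 6.36, SE 0.23, adjusted P = 1.48e-17) and 6.59-fold at 24 h (log2 2.72, SE 0.34, adjusted P = 5.34e-07).

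Plat in these cells was within 1.21-fold of its 0 h level at every time point. Its log2 change was 0.27 at 4 h (SE 0.05, adjusted P = 5.96e-05) and -0.27 at 24 h (SE 0.05, adjusted P = 0.000121), and on log2(TPM + 1) the change of Plat at 4 h was 0.04 (adjusted P = 0.498). Serpine2 had a log2 change of -0.33 at 24 h (SE 0.06, adjusted P = 8.17e-05), with 43.6 to 46.6 CPM at 24 h against 55.2 to 57.6 at 0 h, also short of the fold threshold.

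**Figure D3:**
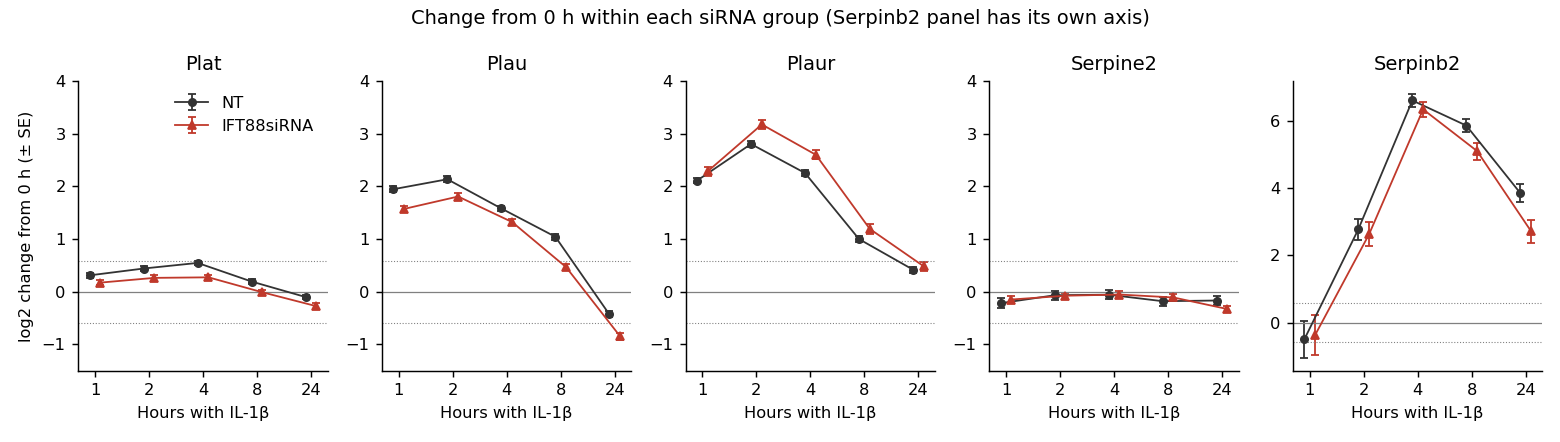
Log2 change from 0 h of each gene at the 5 times with IL-1β in NT (dark circles) and IFT88siRNA (red triangles), with the SE as bars and the fold threshold of 1.5 as dotted lines; the Serpinb2 panel has its own axis. At 24 h Serpinb2 stands at 3.86 in NT and 2.72 in IFT88siRNA, and Plau at -0.43 and -0.85.

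The next question is whether depletion of Ift88 changed the level of these genes. Serpinb2 was the gene of the 5 that was called: it was lower in IFT88siRNA at 4, 8 and 24 h. At 0 h and 1 h, 0 of the 4 genes with enough counts were called, where 2.23% and 2.66% of all tested genes were, and at 2 h 0 of 5 (0.496% of all). The tool was edgeR. With the adjusted P alone 2, 2 and 1 genes passed at these times, Plat and Plaur at 0 h, Plau and Plaur at 1 h, and Plau at 2 h. Over all genes, 2979 of 15274, 2808 of 14797 and 407 of 14728 passed in this way. At an unadjusted P under 0.05 the counts were 3 of 4, 3 of 4 and 1 of 5 tested genes. The share over all genes at that threshold was not computed, so these counts cannot be set against it. DESeq2 called 0 of these 4, 4 and 5 genes. At 4 h, 8 h and 24 h Serpinb2 was called, 1 of 5 genes each time, beside 0.432%, 0.692% and 1.15% of all tested genes. Over the 6 time points together 1 of the 5 was called, with 5.19% of all genes. All 5 had an adjusted P under 0.05, as did 5314 of 16710 genes. The adjusted P of Serpine2, 0.0494, reached 0.0954 when single libraries were left out and 0.635 on TPM.

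The difference in Serpinb2 was -0.66 on the log2 scale at 4 h (SE 0.08, adjusted P = 0.000154), -1.17 at 8 h (SE 0.12, adjusted P = 0.000363) and -1.54 at 24 h (SE 0.18, adjusted P = 7.62e-05). That is a level 1.58-fold, 2.25-fold and 2.91-fold lower. At each of these times every IFT88siRNA library lay below every NT library, and at 24 h the difference ranked 4 of 15223 genes by size. At 2 h the values came close without overlap, 0.71 to 1.13 against 1.14 to 1.42 CPM, and the difference of -0.55 did not pass the test (SE 0.26, adjusted P = 0.303). At 0 h and 1 h the reads per library were from 1 to 6 in both groups, and a difference was not detectable at this depth. With limma on log2(TPM + 1) the difference of Serpinb2 at 4 h was -0.67 with an adjusted P of 0.0636, and without the filter on low TPM the calls at 8 h (adjusted P = 0.0604) and 24 h (adjusted P = 0.0933) were also lost.

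Plau was lower in IFT88siRNA at 1, 2, 8 and 24 h by the P-value threshold, with small differences. At 0 h the log2 difference was 0.09 (SE 0.05, adjusted P = 0.239) and the libraries overlapped. After 1 h it was -0.29 (adjusted P = 0.000663), after 2 h -0.24 (adjusted P = 0.0264) and after 4 h -0.16 (adjusted P = 0.0607). Later it was -0.49 at 8 h (SE 0.07, adjusted P = 0.00242) and -0.33 at 24 h (adjusted P = 0.00549). From 1 h to 24 h all IFT88siRNA libraries lay below all NT libraries, and no time point reached the fold threshold. With limma on TPM the differences of Plau missed the P-value threshold in all 3 settings at 1 h (adjusted P from 0.0525 to 0.12), 2 h (0.118 to 0.218), 8 h (0.0565 to 0.118) and 24 h (0.0959 to 0.193). At 2 h Plau also missed it when single libraries were left out, with an adjusted P of up to 0.112.

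Plaur was lower at 0 h, with a log2 difference of -0.35 (SE 0.06, adjusted P = 0.000353), at 1 h with -0.18 (adjusted P = 0.0275) and at 24 h with -0.30 (adjusted P = 0.0112). With limma on TPM, Plaur missed the P-value threshold in all 3 settings at 1 h (adjusted P from 0.128 to 0.263) and 24 h (0.0976 to 0.2), and at 0 h with no filter (0.0703). When single libraries were left out, the adjusted P of Plaur reached 0.173 at 1 h and 0.067 at 24 h. At 2 h and 4 h, when its level was highest, the differences were 0.01 (SE 0.04) and -0.01 (SE 0.05), with overlapping libraries. Plat was higher in IFT88siRNA at 0 h, with 178 to 183 against 153 to 155 CPM (log2 0.24, SE 0.04, adjusted P = 0.000212), and its differences from 1 to 24 h lay between -0.04 and 0.09. Serpine2 differed by 0.12 at 0 h (SE 0.05, adjusted P = 0.0802) and by 0.18 at 1 h and at 8 h, and none of its 6 differences passed alone.

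**Figure D4:**
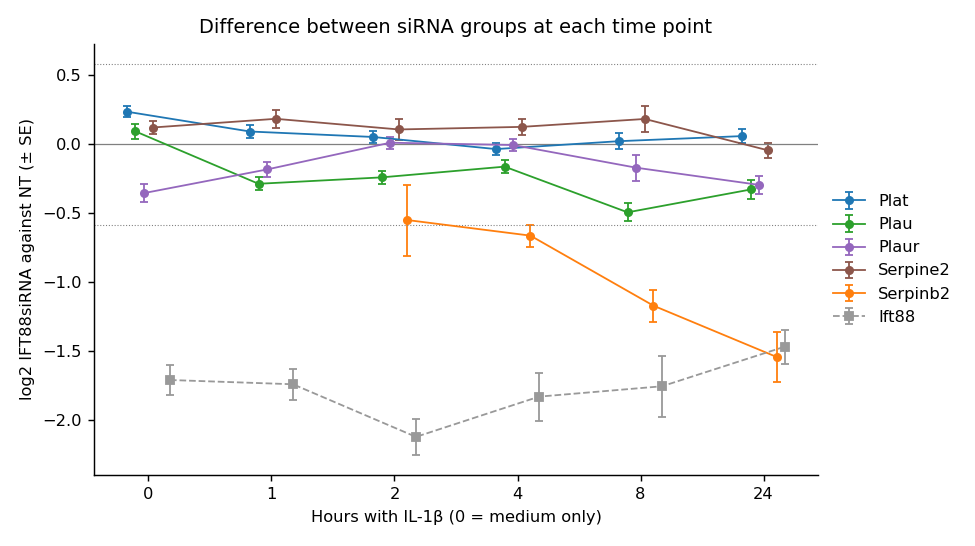
Log2 difference of IFT88siRNA against NT (SE as bars) for the 5 genes and for Ift88 (grey squares) at each time point, with the fold threshold of 1.5 as dotted lines; Serpinb2 has too few reads to be tested at 0 and 1 h. Serpinb2 goes from -0.55 at 2 h to -1.54 at 24 h, and the other 4 genes stay between the dotted lines.

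A difference in level can be present before IL-1β or arise in the response, and the change from 0 h was therefore compared between the siRNA groups over the 5 time points together. Serpinb2 was called (largest difference -1.14 at 24 h, SE 0.56, adjusted P = 0.0209), 1 of the 5 genes where 1.20% of 16710 genes were. No single time point of Serpinb2 passed in this test, with adjusted P-values from 0.739 to 0.975. The call was lost without IFT88siRNA replicate 1 at 24 h (adjusted P = 0.058) and with log2(TPM + 0.1) (adjusted P = 0.0972). Plau passed the P-value threshold (adjusted P = 0.000424), with a difference of -0.57 at 8 h (SE 0.08, adjusted P = 7.92e-05) that lay just under the fold threshold, and it was called in 4 of the 36 fits that left out a library: NT replicate 3 or IFT88siRNA replicate 3 at 0 h, or NT replicate 1 or IFT88siRNA replicate 1 at 8 h (log2 differences from -0.59 to -0.65). Plaur (largest difference 0.37 at 2 h, adjusted P = 0.0652), Plat (-0.27 at 4 h, adjusted P = 0.136) and Serpine2 (-0.16 at 24 h, adjusted P = 0.689) did not pass.

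To avoid the few reads of Serpinb2 at 0 h, the difference between siRNA groups at 8 h and at 24 h was set against that at 4 h, a test chosen after the values were seen. For Serpinb2 the difference at 24 h minus that at 4 h was -0.88 on the log2 scale (SE 0.20, adjusted P = 0.0161), a call shared with 0.515% of all genes. The difference at 8 h minus that at 4 h was -0.50 (SE 0.16, adjusted P = 0.285), where 0 of the 5 genes and 0.0898% of all genes were called. In edgeR 2 of the 5 had an unadjusted P under 0.05. The share over all genes at that threshold was not computed, so this count cannot be set against it. DESeq2 called 0 of the 5. The 24 h call was lost without IFT88siRNA replicate 1 at 24 h (adjusted P = 0.0728) and with all 3 settings on TPM (adjusted P from 0.539 to 0.712). The other 4 genes did not pass at either time.

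The balance between the genes was described per library from TPM, which is per length. In NT the level of Plau per Plat was 0.28 ± 0.01 at 0 h, 0.91 ± 0.02 at 2 h and 0.22 ± 0.01 at 24 h (SD, n = 3). In IFT88siRNA it was 0.25 ± 0.01 at 0 h, 0.74 ± 0.02 at 2 h and 0.17 ± 0.003 at 24 h. The libraries of the siRNA groups did not overlap in this ratio at any of the 6 times. The ratio was not tested, and how many other gene pairs do the same was not computed. At 0 h the libraries of Plau itself overlapped, and Plat was higher in IFT88siRNA. Serpinb2 per sum of both activators peaked at 4 h, with 0.084 ± 0.008 in NT and 0.055 ± 0.0004 in IFT88siRNA. Serpine2 per sum of both activators dipped from 0.33 ± 0.006 at 0 h to 0.16 ± 0.008 at 1 h in NT and was 0.33 ± 0.005 again at 24 h. The summed level of the 5 genes was 235 ± 2.1 TPM at 0 h and 521 ± 19.5 at 2 h in NT, and 245 ± 2.8 and 506 ± 8.7 in IFT88siRNA.

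The courses of Plat, Plau and Plaur were the most alike among the 5. Over the 12 condition means of log2 CPM, which share libraries and depth, Pearson's r was 0.92 between Plau and Plaur, 0.89 between Plat and Plau and 0.84 between Plat and Plaur. Serpinb2 had an r of 0.07 to 0.22 and Serpine2 an r of 0.04 to 0.42 with these 3 genes. On log2(TPM + 1), r was 0.91 between Plau and Plaur and 0.65 between Plat and Plaur, while for Serpine2 it was -0.61 with Plaur, -0.37 with Plau and 0.03 with Plat. Among 12076 other genes, the most like Plat were Cd82 (r = 0.98), Plcd1 (0.97) and Anxa4 (0.97). F13a1, the coagulation factor XIII A chain (0.98), Gm17501 (0.98) and Tmem2 (0.97) were the most like Plau. Zyx, the focal adhesion protein zyxin (0.99), Skil (0.98) and Gprc5a (0.98) were the most like Plaur. The most like Serpinb2 were Lrrc59 (0.99), Lrrc8d (0.99) and Gpr39 (0.98), and the most like Serpine2 were Sh3bgrl3 (0.93), Osbpl5 (0.87) and Ndfip1 (0.84). With log2(TPM + 1) in place of log2 CPM, all 3 genes of Plau were again the 3 most like it, and 2 of 3 for Plaur, 1 for Plat, 1 for Serpinb2 and 0 for Serpine2.

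Other genes of the system were followed as a list of 42, of which 27 had enough counts in NT. Over the 5 time points 18 of the 27 were called, 9 with higher, 5 with lower values and 4 with changes past the threshold in both directions, beside the 50.0% of all genes given above. The median of their largest log2 change was 0.47, beside -0.21 over all genes tested. Of plasminogen and the inhibitors, Plg (plasminogen) had at most 0.035 CPM in any condition mean, and the 1 tested gene, Serpini1 (neuroserpin, an inhibitor of tPA), was not called.

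Of 4 tested partners of uPAR all 4 were called. For this and the following groups the share over all tested genes was 50.0%, and the counts of these small groups were not tested against it. The largest changes were those of the integrins Itgb3 (log2 2.74 at 4 h, SE 0.10) and Itga5 (log2 2.73 at 2 h, SE 0.05), and Itgb3 had both directions, with 27.1 CPM at 4 h, 4.08 at 0 h and 2.28 at 24 h. Of 4 genes for binding of plasminogen at the cell surface 2 were called, both higher, and of 7 genes for clearance of the complexes 3 were called, 2 lower and 1 in both directions. Of 7 protease receptors and coagulation genes 5 were called: F3 (tissue factor, which starts coagulation) rose from 39.2 to 696 CPM at 1 h (log2 4.15, SE 0.07), F13a1 from 1.27 to 4.95 at 2 h (log2 1.96, SE 0.19) and Thbd (thrombomodulin, a receptor that binds thrombin) from 90.1 to 265 at 4 h (log2 1.56, SE 0.05). F2rl1 (protease-activated receptor 2, cut by trypsin-like proteases) had both directions, with 7.01 CPM at 0 h, 15.7 at 2 h (log2 1.16, SE 0.12) and 4.62 at 24 h. Of 4 further genes, for plasma and surface proteases and the growth factors they activate, 4 were called, 1 higher and 3 lower: Hgf (hepatocyte growth factor) rose by 2.0 on the log2 scale at 4 h (SE 0.17) and St14 (matriptase, a surface protease) fell by 2.41 at 8 h (SE 0.19), from 9.74 to 1.80 CPM.

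Between the siRNA groups, 1 of 30 tested genes of the list was called over the 6 time points, Hgf (largest difference -0.64, adjusted P = 0.000291), beside 5.19% of all tested genes. For the difference in response 2 of the 30 were called, Thbd (-0.91, adjusted P = 5.74e-09) and Hgf (-1.19, adjusted P = 0.015), beside 1.20% of all. Both had a higher mean in IFT88siRNA than in NT at 0 h, Thbd with 126 against 90.1 CPM and Hgf with 1.61 against 1.09. Thbd had 279 against 265 CPM at 4 h, 184 against 226 at 8 h and 112 against 151 at 24 h. Hgf had 2.79 against 4.38 CPM at 4 h.

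**Figure D5:**
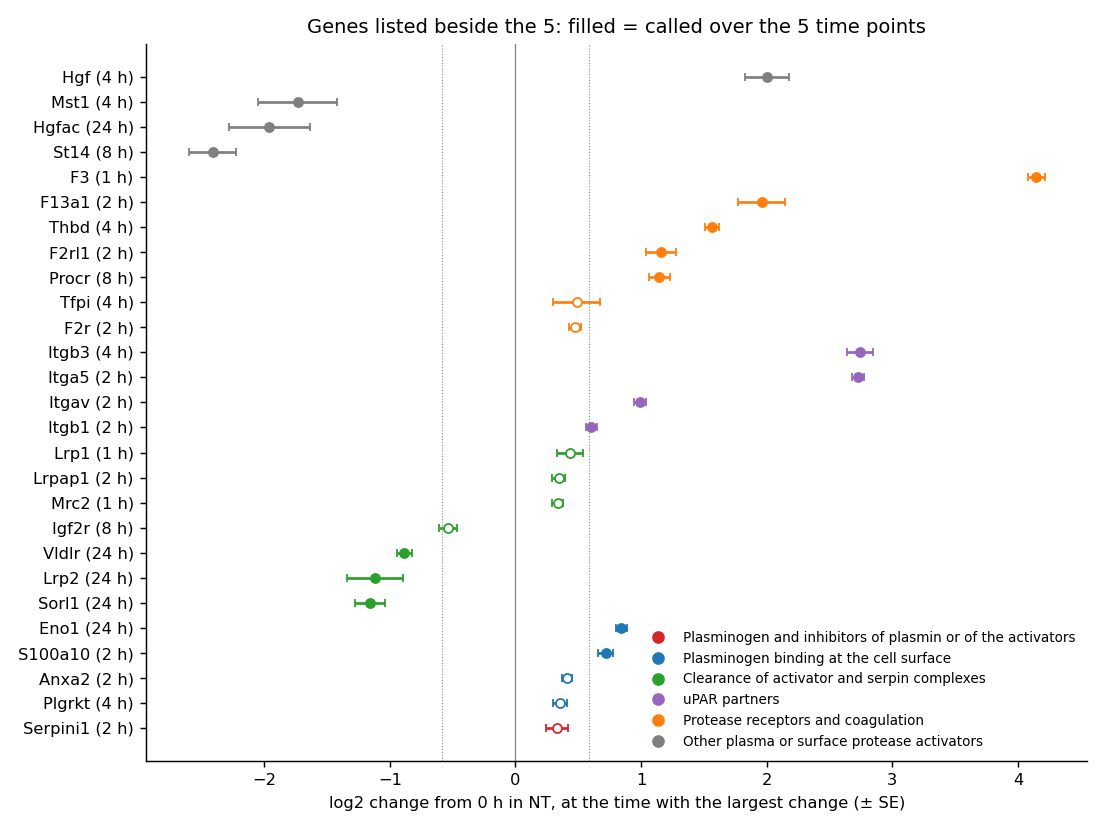
Largest log2 change from 0 h in NT (SE as bars) of the 27 tested genes listed beside the 5, grouped by role in colour, with the time of that change beside each name; filled points were called over the 5 time points. F3 lies above 4, and St14 lies at -2.41.

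In the serpin family, 67 genes whose symbols start with Serpin were followed, 23 had enough counts in NT and 19 were called, 15 higher, 1 lower and 3 in both directions, where 50.0% of all tested genes were called. By size of fitted change Serpinb2 came after Serpina3f (from 0.11 to 64.1 CPM at 4 h) and Serpina3i (from 0.015 to 10.1 at 24 h), and before Serpina3g (from 0.98 to 26.0 at 24 h) and Serpina3h (from 0.71 to 7.79 at 4 h). At 0 h in NT the SD was 0.026 CPM for Serpina3i and 0.045 for Serpina3f. Their folds rest on very few reads at 0 h, as for Serpinb2, and so does this order. The Serpina3 genes are close copies of each other, and reads shared between them make their separate values uncertain. Serpine2 was 1 of the 4 tested serpins that were not called.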

How the data were processed

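Mouse poly(A) RNA was sequenced as paired-end reads, and the authors aligned it to GRCm38 with HISAT2 2.1.0 and the Ensembl 91 annotation. The authors deposited counts of reads per gene from featureCounts (Subread 1.6.3, default parameters) without normalization, and TPM values from Salmon 0.9.1 with GC correction. Conditions came from the sample labels, and the labels' siRNA dose differs from that in the methods. Total counts were from 19337022 to 38304127 per library, and precision from depth covers counting error only.

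The tests on counts used edgeR 4.0.16 (R 4.3.3): TMM scaling, filterByExpr and two-sided quasi-likelihood F-tests, with Benjamini-Hochberg adjustment over all genes tested. The course in NT or IFT88siRNA used 18 libraries, each time point 3 against 3, and the tests over both groups all 36. A gene was called with an adjusted P under 0.05 and a fold over 1.5, at 1 or more time points for joint tests. SE is the absolute log2 change divided by the square root of F. CPM used TMM over all libraries. The study used DESeq2 and ImpulseDE2; DESeq2 1.42.0 was tried as an alternative, and ImpulseDE2 was not used here.

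The 5 genes and the gene lists were chosen with earlier results of these data known, and 1 gene of the lists is not reported here. Named genes followed a rule: the 5 genes, Ift88, the 8 list genes and 5 serpins with the largest called change in NT and a mean of at least 50 counts, list genes called between siRNA groups, and the 3 genes most like each of the 5 by Pearson's r. Genes added to these are given for the groups they belong to. Alternatives were DESeq2, its size factors or upper-quartile scaling in edgeR, no filter, a replicate block, all 36 libraries in 1 fit, no fold threshold, leaving out each library, and TPM with limma 3.58.1 on log2(TPM + 1) or log2(TPM + 0.1). The TPM filter kept genes at 1 or more in 3 libraries, or was dropped. The steps were tested on simulated counts with known changes. Promoter windows came from RefSeq, and figures were drawn with matplotlib 3.10.9.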

Additional observations from a re-analysis of the deposited data

Results flagged for a closer look

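The change with IL-1β differed between the siRNA groups for Plau, Serpinb2 and 4 of the 8 named list genes around them. The test took the 5 differences together in all 36 libraries. By an adjusted P under 0.05 alone, as used here, 924 of 16710 genes passed. Hgf was named in part for its call between the siRNA groups in these same data. The difference is the log2 change from 0 h in IFT88siRNA minus that in NT, at the time where it was largest. Each adjusted P is that of the 5 differences together and not of that time alone. The difference was -0.57 for Plau at 8 h (adjusted P = 0.000424) and -1.14 for Serpinb2 at 24 h (adjusted P = 0.0209). For Serpinb2 no time point passed alone (adjusted P = 0.739 at 24 h). Its joint call was lost without IFT88siRNA replicate 1 at 24 h (adjusted P = 0.058) and with limma on log2(TPM + 0.1) (adjusted P = 0.0972). The difference was 0.36 for F3 (adjusted P = 0.00508), -0.28 for Itga5 (adjusted P = 0.0155), -0.91 for Thbd (adjusted P = 5.74e-09) and -1.19 for Hgf (adjusted P = 0.015). The differences of Plau, F3 and Itga5 lay under the fold threshold of 1.5. With 3 libraries per condition, no single library was tested as an outlier.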

How the results depend on the processing

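No called value of the 5 genes changed sign under any alternative. Of 1059 values recomputed under settings other than leaving out a library, 1020 kept their side of the threshold, 30 passed (all on dropping the fold threshold) and 9 lost a call, and of 1128 with a library left out 1122 kept it. Without the fold threshold the genes called were 5 over the course in IFT88siRNA, 5 between the siRNA groups over 6 time points, 2 for the difference in response, 4 at 1 h and 3 at 24 h in NT, 5 at 24 h in IFT88siRNA, and 2, 2, 1, 2 and 3 between the groups at 0, 1, 2, 8 and 24 h. Over all genes, the first 3 of these counts were 13875 of 16129, 5314 of 16710 and 924 of 16710. In NT 8304 of 16048 passed at 1 h and 7206 at 24 h, and in IFT88siRNA 6419 of 16129 at 24 h. Between the groups 2979, 2808, 407, 644 and 1318 of all genes passed at those 5 times. The listed genes called rose to 12 between the groups and to 4 for the difference in response. On TPM, 0 genes were called at 4 h with all 3 settings (limma; Serpinb2 had an adjusted P of 0.0601 to 0.127), 0 at 8 h and 0 at 24 h with no filter, and 0 for the difference in response with log2(TPM + 0.1). Leaving out a library gave from 0 to 2 genes called for the difference in response. The cause of these losses was not tested.

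The replicate block changed no call of the 5 genes; for Serpinb2 it gave -0.66, -1.17 and -1.55 at 4, 8 and 24 h. Libraries with the same number, time point and other siRNA had correlated deviations of over 0.1 in 2 of 18 pairs (r from -0.13 to 0.22), and 19 of 36 libraries were closest to their own number. Over all genes, the block moved the count called at 2 h from 73 to 115. Between the groups at single time points, counts over all genes were 64 to 393; on TPM they were 11 to 143, with DESeq2 176 at 0 h, 223 at 1 h and 34 at 4 h, with no filter 137, 100 and 245 at 2, 4 and 8 h, and in 1 fit of all libraries 142 and 231 at 2 and 8 h. Over 6 time points 868 became 421 or 367 on TPM with a pseudocount of 1. For the difference in response 201 became 345 with no filter and 115 on TPM with no filter. Without the fold threshold, genes that passed went from 8017 to 14188 over the NT course, 7781 to 13875 over the IFT88siRNA course, 868 to 5314 between the groups and 201 to 924 for the difference in response. At single times they went from 2618 to 4602 up to 7206 to 9775 in NT, from 64 to 393 up to 407 to 2979 between the groups, and from 15 and 86 to 36 and 283 against the difference at 4 h. Leaving out a library gave 217 to 457 genes between the groups at 1 h, 22 to 208 at 2 h, 23 to 140 at 4 h, 47 to 583 at 8 h and 103 to 185 at 24 h. The likeness of Serpine2 to Osbpl5 moved to r = 0.80 and of Serpinb2 to Lrrc59 to r = 0.91 on TPM. Low reads limit Serpinb2 before 2 h.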
